A study of Mus musculus with 24 samples.

Results

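Lamin A/C was mapped in wild-type (WT) mouse cells with 2 antibodies to opposite ends of the protein. N18 binds at its start, and 3A6 binds the immunoglobulin-like domain in its tail. The libraries compared are those of both antibodies in WT cells after 12 cycles of sonication, 2 of the 24 samples of the series. The members are the domains and islands called in these libraries, 238 EDD domains and 8762 SICER islands with N18 and 285 EDD domains and 9159 SICER islands with 3A6. An EDD domain is a long region in which the immunoprecipitated (ChIP) reads exceeded the input reads, and a SICER island is a short one. Every bp of a domain was put into 1 of 3 classes, covered with N18 only, covered with both antibodies (shared) or covered with 3A6 only, and each unbroken run of a class is called a stretch.

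The WT cells are immortalized murine dermal fibroblasts with the genotype Lap2alpha +/+, which received no treatment. The KO cells are of the same kind but carry Lap2alpha -/-, a deletion that removes the LAP2alpha isoform of the gene Tmpo. Lamin B1 and LAP2alpha libraries of WT cells served as references at 12 and 30 cycles of sonication, and lamin A/C libraries of WT cells at 30 cycles and of KO cells at 12 and 30 cycles were read beside them. Each group is 1 library, so no value here has a replicate error, no test between antibodies was possible, and a difference between the antibodies cannot be told apart from a difference between 2 libraries. Both libraries were called against input of the same cells and sonication, and the run names given to the files place them on 1 flow-cell lane, whereas the lamin B1 and LAP2alpha libraries came from other flow cells. Reads inside islands numbered 5091621 with N18 and 4884992 with 3A6, or 21.2 and 21.1 reads per kb of island. Islands of the 12-cycle references had 21.1 reads per kb with LAP2alpha but 38.4 with lamin B1, so the lamin B1 reference differed in read density. Intervals in brackets are exact (Clopper-Pearson) 95% binomial intervals over domains, islands or genes and cover counting error only. Region lists hold no expression values, so the labelled cell type could not be checked against its markers.

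A-type lamins are intermediate filament proteins made from Lmna. Part of them is built into the lamina beneath the inner nuclear membrane together with lamin B1, where they contact gene-poor, mostly silent lamina-associated chromatin, and part is free in the nuclear interior, where LAP2alpha binds it. An antibody can recover only those molecules whose epitope is free.

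To show what the classes look like as DNA, the promoter window of the longest gene that lay wholly inside the longest stretch of each class is printed, from 250 bases before to 50 bases after the annotated gene start, read 5′ to 3′ on the gene's own strand from mm9. Capitals mark CpG dinucleotides, the sites of DNA methylation in mammals. The N18-only example is Rbfox2, a splicing regulator, at chr15:77137434-77137733 on the minus strand. The shared example is Auts2, a neurodevelopmental gene, at chr5:133019165-133019464 on the minus strand. The 3A6-only example is Snx19, a sorting nexin gene, at chr9:30234443-30234742 on the plus strand.
Rbfox2: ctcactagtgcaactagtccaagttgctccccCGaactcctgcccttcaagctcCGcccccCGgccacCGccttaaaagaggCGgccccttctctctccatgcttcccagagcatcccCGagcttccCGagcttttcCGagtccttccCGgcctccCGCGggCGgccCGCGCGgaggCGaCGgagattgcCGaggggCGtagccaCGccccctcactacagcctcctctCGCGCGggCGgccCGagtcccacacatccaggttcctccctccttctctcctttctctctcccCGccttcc
Auts2: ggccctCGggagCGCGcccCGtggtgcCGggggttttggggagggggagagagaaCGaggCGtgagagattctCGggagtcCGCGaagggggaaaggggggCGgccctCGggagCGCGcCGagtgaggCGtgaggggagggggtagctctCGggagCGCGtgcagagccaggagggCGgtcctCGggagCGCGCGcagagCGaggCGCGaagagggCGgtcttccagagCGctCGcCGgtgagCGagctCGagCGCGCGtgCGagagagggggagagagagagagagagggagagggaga
Snx19: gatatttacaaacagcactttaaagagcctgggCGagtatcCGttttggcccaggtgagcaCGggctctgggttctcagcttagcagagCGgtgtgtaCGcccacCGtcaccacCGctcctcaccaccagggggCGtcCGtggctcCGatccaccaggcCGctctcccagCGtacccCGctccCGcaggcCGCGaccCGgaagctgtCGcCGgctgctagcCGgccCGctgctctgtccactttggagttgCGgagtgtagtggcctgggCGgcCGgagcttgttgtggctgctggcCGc
These windows hold 26, 37 and 25 CpGs and 67%, 72.3% and 65.7% G+C, so all 3 are CpG-rich whatever their class.

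The longest SICER islands that shared no bp with an island of the other antibody are shown by the 200 bases at their midpoint, plus strand, with CpGs in capitals. The N18 island spanned 335 kb at chr15:38074001-38409000 with 7873 reads, and its window is chr15:38241401-38241600. The 3A6 island spanned 144 kb at chr8:8915001-9059000 with 3085 reads, and its window is chr8:8986901-8987100.
N18 island: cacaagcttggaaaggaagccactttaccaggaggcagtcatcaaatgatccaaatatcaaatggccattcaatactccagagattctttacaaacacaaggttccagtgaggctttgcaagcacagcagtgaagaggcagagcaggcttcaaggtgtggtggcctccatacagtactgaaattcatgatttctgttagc
3A6 island: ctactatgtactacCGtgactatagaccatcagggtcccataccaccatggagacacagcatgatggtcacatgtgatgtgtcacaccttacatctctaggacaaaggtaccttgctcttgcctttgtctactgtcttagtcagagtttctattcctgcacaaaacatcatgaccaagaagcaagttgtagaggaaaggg
Both windows hold 45% G+C, with 0 CpGs in the N18 window and 1 in the 3A6 window. Klf10, a zinc finger transcription factor gene, was the gene nearest to the midpoint of the N18 island, 11.04 kb away, and Fam155a was the nearest to that of the 3A6 island, 220 kb away. Neither island lay in an EDD domain of either antibody, of lamin B1 or of LAP2alpha at 12 cycles.

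The antibodies covered nearly the same length of the genome with EDD domains, 404 Mb with N18 and 399 Mb with 3A6, and most of it was the same chromatin. Shared bp came to 309 Mb, N18-only bp to 94.7 Mb and 3A6-only bp to 89.5 Mb. Thus 77.5% of 3A6 bp lay in N18 domains and 76.5% of N18 bp lay in 3A6 domains, while N18 domains covered 15.3% and 3A6 domains 15.1% of the genome.

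The classes differed in how they were cut up. Shared bp fell into 209 stretches with a median of 770 kb and a maximum of 31.6 Mb. N18-only bp fell into 223 stretches with a median of 264 kb and a maximum of 3.32 Mb, and 3A6-only bp into 243 stretches with a median of 308 kb and a maximum of 1.88 Mb. Stretches of at least 1 Mb numbered 72 in the shared class, 28 in the N18-only class and 16 in the 3A6-only class. No shared stretch was under 100 kb, against 78 N18-only and 71 3A6-only stretches.

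**Figure D1:**
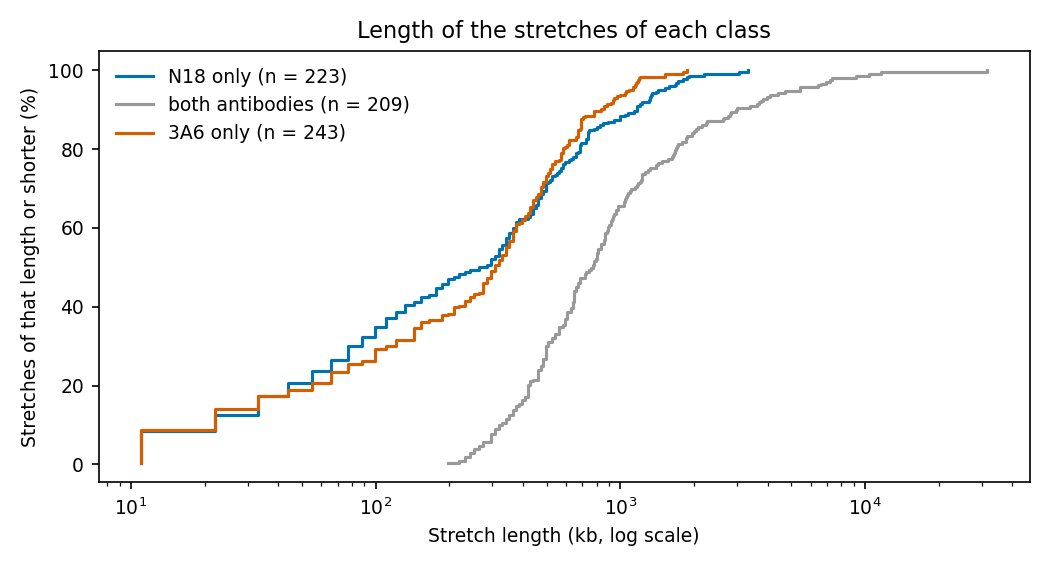
Cumulative share of stretches (y axis, %) by stretch length (x axis, kb, log scale) for the 223 N18-only, 209 shared and 243 3A6-only stretches. The shared curve lies to the right of the others, with a median of 770 kb against 264 and 308 kb.

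Antibody-only bp arose as whole domains and as edges of common ones. Of the 238 N18 domains, 50 had no bp in a 3A6 domain (21.0% [16.0, 26.7]), and of the 285 3A6 domains, 89 had none in an N18 domain (31.2% [25.9, 37.0]). At the other end 64 N18 domains lay wholly inside 3A6 domains and 76 3A6 domains wholly inside N18 domains. At least 50% of the bp was covered in 170 N18 domains (71.4% [65.2, 77.1]) and in 184 3A6 domains (64.6% [58.7, 70.1]).

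Domains without a counterpart were shorter and scored lower than the rest in both libraries. Their median length was 556 kb against 974 kb with N18 and 484 kb against 913 kb with 3A6. A longer domain has more bp that can meet another domain, so a group defined by no shared bp tends to be short. The median EDD score, which the caller gives each domain and which rises with its length, was 6.00 against 9.10 with N18 and 6.49 against 10.4 with 3A6, above lowest scores of 4.89 and 5.16. Single domains without a counterpart nevertheless reached scores of 14.8 with N18 and 15.6 with 3A6.

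Whole domains made up 39.8% of the N18-only bp (37.7 Mb) and 56.8% of the 3A6-only bp (50.9 Mb). Edges of a shared stretch added 152 N18-only stretches with a median of 104 kb and 141 3A6-only stretches with a median of 99.0 kb. Gaps between 2 shared stretches accounted for 21 N18-only stretches (18.7 Mb, median 726 kb) and for 13 3A6-only stretches (6.75 Mb, median 451 kb).

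N18-only chromatin was gene-rich, 3A6-only chromatin was not. With a gene counted where at least 50% of its length lay in a class, 2127 genes were N18-only, 3959 were shared and 722 were 3A6-only, that is 9.58%, 17.8% and 3.25% of the 22208 protein-coding genes. Per length this was 22.5 genes per Mb in N18-only stretches, 12.8 in shared stretches and 8.06 in 3A6-only stretches, with 8.42 in the whole genome. N18-only chromatin thus held the densest genes of the 3 classes, and 3A6-only chromatin lay close to the genome's own density. No gene counted in the class lay in 61 of the 223 N18-only stretches, 95 of the 243 3A6-only stretches and 3 of the 209 shared stretches. Such a stretch can still lie within a gene that has less than 50% of its length in the class.

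The higher density did not depend on where a stretch lay. N18-only stretches held 21.8 genes per Mb as whole domains, 22.1 at edges and 24.4 between shared stretches. The 3A6-only values in the same order were 7.16, 10.2 and 4.74 genes per Mb. Genes were also somewhat shorter in the N18-only class, with a median of 11.3 kb, than in the 3A6-only class (12.8 kb), the shared class (15.8 kb) and the genome (15.5 kb).

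Base composition separated 3A6-only stretches from the others. G+C was 46.9% in N18-only, 46.8% in shared and 43.2% in 3A6-only bp, and 41.8% in the genome. CpGs came to 12.6, 11.8 and 8.95 per kb, against 8.34 per kb in the genome. Bp outside the domains of both antibodies had 40.7% G+C and 7.17 genes per Mb.

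Promoters of 3A6-only genes had fewer CpGs than those of all genes, although 3A6-only bp as a whole had slightly more than the genome. In the 300-base windows, the median number of CpGs was 15 for N18-only genes, 15 for shared genes and 8 for 3A6-only genes, against 11 for all genes. Windows with at least 10 CpGs made up 64.6% of N18-only, 61.2% of shared and 46.0% of 3A6-only promoters and 54.1% of all promoters, counting the letters CG, which read the same on both strands. Windows without a CpG made up 1.504% of N18-only, 1.62% of shared and 5.40% of 3A6-only promoters, against 4.89% of all.

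In the classes of EDD domain bp, lamin B1 domains held more of the 3A6-only and far less of the N18-only bp than of the genome. Lamin B1 domains at 12 cycles held 2.38% of N18-only bp, 19.5% of shared bp and 33.6% of 3A6-only bp, where the genome as a whole stood at 16.9%. At 30 cycles, when lamin B1 domains covered 36.2% of the genome, the values were 3.24%, 23.9% and 47.1%. Each class lies on its own mix of chromosomes, and the lamin B1 coverage of those chromosomes alone gives 18.3% for N18-only and 18.1% for 3A6-only bp at 12 cycles. Measured shares were 0.130 and 1.85 times these values, and 0.945 times for shared bp. At 30 cycles the excess in 3A6-only bp was smaller, at 1.37 times, with 0.0934 times for N18-only and 0.662 times for shared bp.

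LAP2alpha at 12 cycles was broad in all classes but lowest in the 3A6-only class. Its domains held 74.3% of N18-only, 94.8% of shared and 49.6% of 3A6-only bp, against 19.2% of the genome. With LAP2alpha at 30 cycles the order of the antibody-only classes turned, to 31.7% of N18-only and 61.6% of 3A6-only bp, with 62.3% of shared bp and 24.6% of the genome. The order of N18-only and 3A6-only bp in LAP2alpha domains therefore holds for the 12-cycle reference alone. It was also lost when SICER islands took the place of EDD domains in the classes, with 29.8% and 30.3% of their bp in 12-cycle LAP2alpha domains, though 34.4% and 31.1% in LAP2alpha islands.

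**Figure D2:**
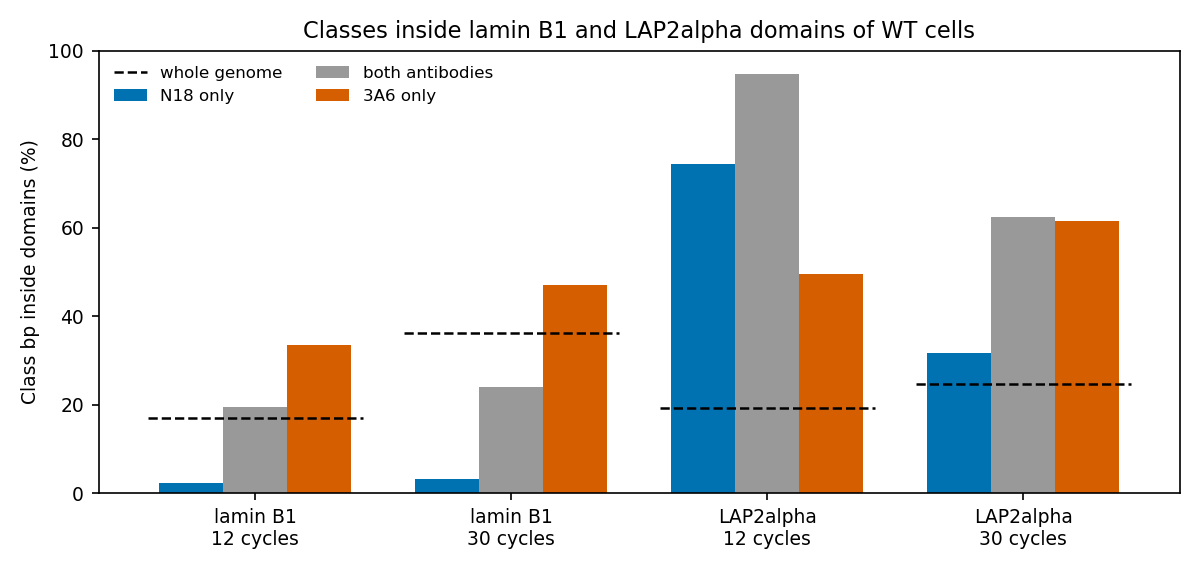
Share of the bp of each class (y axis, %) inside lamin B1 and LAP2alpha domains of WT cells after 12 and 30 cycles, with 1 library behind each group of bars and a dashed line at the share of the whole genome. N18-only bars stand at 2.38% and 3.24% for lamin B1, and 3A6-only bars at 33.6% and 47.1%.

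The lamin B1 values were given by stretches of every position. Whole N18 domains without a counterpart had 3.97% of their bp in 12-cycle lamin B1 domains, N18-only edges 1.98% and N18-only gaps between shared stretches 0%. Their 3A6 counterparts had 30.2%, 39.5% and 30.6%. LAP2alpha at 12 cycles varied more, from 39.5% in whole 3A6 domains without a counterpart to 62.5% at 3A6-only edges, and from 64.8% to 81.2% at the same positions of the N18-only class.

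Counted by genes, the lamin B1 contrast was smaller but had the same order. Lamin B1 domains at 12 cycles held 35 of 2127 N18-only genes (1.65% [1.15, 2.28]), 231 of 3959 shared genes (5.83% [5.12, 6.61]) and 137 of 722 3A6-only genes (18.98% [16.2, 22.0]), against 7.78% of all genes. LAP2alpha domains at 12 cycles held 83.0% [81.3, 84.6], 97.9% [97.4, 98.3] and 63.3% [59.7, 66.8] of the genes of these classes, against 35.9% of all genes. Neighbouring genes share a domain, so they are not independent and the true uncertainty is wider.

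Gene families fell into the classes in different shares. The lists hold the members of a family by symbol, and each count is to be read against the 9.58%, 17.8% and 3.25% of all genes that were N18-only, shared and 3A6-only. Most genes were in no class, namely 15395 of the 22203 whose promoter window was read. Absence of a family from the classes is to be read against that. Counts in 12-cycle reference domains are to be read against the shares of all genes of the same class. In the same order of classes these were 83.0%, 97.9% and 63.3% for LAP2alpha and 1.65%, 5.83% and 18.98% for lamin B1. Families sit in clusters, so 1 domain edge can move many members, and no list was tested.

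Cytochrome P450 genes, whose products oxidize steroids, fatty acids and drugs, leaned to 3A6. Of 91 annotated genes 29 were 3A6-only (31.9%), 8 were shared (8.79%) and 6 were N18-only (6.59%). The 3A6-only members lay on 6 chromosomes, with 7 genes on chromosome 15, 7 on chromosome 17, 5 on chromosome 4, 5 on chromosome 7, 4 on chromosome 5 and 1 on chromosome 9. The longest were Cyp19a1 (102 kb), which encodes the aromatase that makes estrogens, Cyp3a59 (34.0 kb) and Cyp3a25 (32.4 kb), both of the drug-oxidizing Cyp3a family. All 3 lay wholly in 3A6 domains, in lamin B1 domains at 30 cycles and in LAP2alpha domains at 12 cycles. The Cyp3a pair also lay wholly in lamin B1 domains at 12 cycles. Lamin B1 domains at 12 cycles held 4 of the 29 genes and those at 30 cycles 10, against 18.98% and 27.1% of all 3A6-only genes. LAP2alpha domains at 12 cycles also held 10 of the 29, against 63.3% of all 3A6-only genes. N18-only members included Cyp4f18, Cyp11b1 and Cyp17a1, the last of which encodes an enzyme of androgen synthesis. All 6 lay in LAP2alpha and none in lamin B1 domains at 12 cycles, against 83.0% and 1.65% of all N18-only genes.

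Olfactory receptor genes, which encode odorant receptors and occur in large silent clusters, mostly lay outside both antibodies. Of 1087 genes 64 were 3A6-only (5.89%), 24 were shared (2.21%) and 15 were N18-only (1.38%). In no class were 984, where of all genes 15395 of 22203 were in none. Lamin B1 domains at 12 cycles held 573 of the 1087, against 7.78% of all genes. The 3A6-only members came from chromosomes 7 (25 genes), 11 (20 genes), 4 (10 genes), 6 (5 genes) and 1 (4 genes). In 12-cycle lamin B1 domains lay 19 of the 64, against 0 of the 15 N18-only members. More of the 64, namely 51, lay in 12-cycle LAP2alpha domains, as did all 15 N18-only members. The longest 3A6-only members were Olfr212, Olfr331 and Olfr1333, the longest shared ones Olfr1414, Olfr1341 and Olfr225, and the longest N18-only ones Olfr374, Olfr1386 and Olfr1377. Vomeronasal receptor genes, the pheromone receptors, numbered 322, of which 4 were 3A6-only, among them Vmn2r17, Vmn1r56 and Vmn1r55, 1 was shared (Vmn1r1) and 0 were N18-only.

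Keratin genes, which encode the intermediate filaments of epithelia, were covered by N18 more often than by 3A6. Of 46 genes 15 were N18-only (32.6%), 19 were shared (41.3%), 0 were 3A6-only and 12 were in no class. On chromosome 11 lie 13 of the N18-only genes, among them Krt19 and Krt32, and all 19 shared genes on chromosome 15, among them Krt80, Krt7 and Krt79. Krt8, a keratin of simple epithelia, was N18-only on chromosome 15. All 34 covered genes lay in 12-cycle LAP2alpha domains and none in lamin B1 domains. Of all N18-only genes 83.0% and 1.65% lay in these domains, and of all shared genes 97.9% and 5.83%. Of 46 keratin-associated protein genes, 2 were shared (Krtap11-1 and Krtap12-1) and 2 were 3A6-only (Krtap7-1 and Krtap8-1), both of the latter in lamin B1 domains.

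Beta-defensin genes, which encode antimicrobial peptides, split by chromosome. All 11 N18-only genes, among them Defb36, Defb45 and Defb23, lie on chromosome 2 and were in LAP2alpha but not lamin B1 domains at 12 cycles. The 8 shared genes, among them Defb50, Defb9 and Defb2, lie on chromosome 8 and were in lamin B1 but not LAP2alpha domains. Of the 41 beta-defensin genes 26.8% were N18-only and 19.5% shared, against 9.58% and 17.8% of all genes, and 22 were in no class. None was 3A6-only, a class that held 3.25% of all genes.

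Genes with a ribosomal protein symbol, paralogs such as Rpl3l included, were 3A6-only in 1 of 79 cases (Rpl21), N18-only in 15 (18.99%) and shared in 20 (25.3%). Rpl13a, Rpl7l1 and Rpl3l were the longest N18-only and Rpl22, Rps10 and Rps19 the longest shared members. Wnt ligands and receptors were shared in 11 of 29 cases, among them Wnt7a, Wnt7b and Wnt3, and N18-only in 1, the receptor gene Fzd7. Potassium channel genes were shared in 30 of 92 cases (32.6%), with Kcnip1, Kcnh1 and Kcnj6 the longest, N18-only in 8, with Kcnk3, Kcnh2 and Kcnj4, and 3A6-only in 5, with Kcnq3, Kcnk9 and Kcnj5.

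Collagen genes, which encode matrix proteins that fibroblasts secrete, were found in all classes. Of 43 genes 6 were N18-only, with Col6a6, Col18a1 and Col6a4 the longest, 7 were shared, with Col5a1, Col13a1 and Col4a2, and 3 were 3A6-only, Col22a1, Col4a4 and Col4a3. In a list of 29 fibroblast matrix genes Thy1, a fibroblast surface glycoprotein, was N18-only, Timp2, Pdgfra and Eln were shared and Tagln, an actin-binding protein gene, was 3A6-only. The remaining 24 were in no class.

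Cadherins, which join cells to each other, were shared in 6 of 23 cases, with Cdh13, Cdh4 and Cdh23 the longest, and Cdh16 was N18-only. Tmem132 genes were shared in 4 of 5 cases, with Tmem132d, Tmem132c and Tmem132b the longest, and Tmem132a was N18-only. None of 12 non-clustered protocadherin genes was in any class. Odz4 was the shared teneurin of 4, Csmd2 the shared Csmd gene of 3 and Cntnap4 the 3A6-only contactin-associated gene of 7. Of 47 glutamate and GABA receptor genes 11 were shared, with Grid1, Grin2b and Grik4, 3 were N18-only (Grm6, Grm2 and Grin3b) and Grin2a alone was 3A6-only.

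Zinc finger genes with a number in their symbol were N18-only in 26 of 340 cases, with Zfp961, Zfp326 and Zfp318 the longest, shared in 48, with Zfp536, Zfp423 and Zfp236, and 3A6-only in 24, with Zfp871, Zfp39 and Zfp61. That is 7.65%, 14.1% and 7.06%. Of 66 histone genes Hist1h2al was N18-only and Hist3h2a and Hist3h2ba were 3A6-only. E2f8, a cell-cycle repressor gene, was the N18-only member of the 11 E2F and retinoblastoma family genes. None of the 39 Hox genes was in any class.

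Genes of the nuclear envelope itself could be placed singly. Lbr, which encodes the lamin B receptor, Ankle2 and Banf1, whose product BAF links DNA to LEM-domain proteins, were wholly N18-only. Lmnb2, which encodes lamin B2, and the LEM-domain genes Lemd1, Lemd2 and Ankle1 were wholly shared, as was Tmem43. Of the genes that link the lamina to the cytoskeleton, Sun2 was N18-only, Sun1 and Sun5 were shared and Sun3 was 3A6-only. Sun3 lay by 85.0% in 30-cycle lamin B1 domains, the other genes named so far by 0%. Banf1 and Sun3 were outside 12-cycle LAP2alpha domains and the others wholly inside. Lmna, Lmnb1, Tmpo, Zmpste24, Syne1, Syne2, Emd, Spag4, Tor1aip1 and Tor1aip2 had 0% of their length in domains of either antibody, though Emd lay wholly in a 30-cycle lamin B1 domain, and Lemd3 had 18.6% in an N18 domain.

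The 5 longest N18-only stretches held between 17 and 164 genes each and had no bp in 12-cycle lamin B1 domains. The longest, chr15:74481001-77803000, joined 2 shared stretches, held 111 genes including Zfp251, Zfp7, Zfp41 and Zfp623 and lay wholly in LAP2alpha domains at 12 cycles. The next, chr17:33957001-37015000 (3.06 Mb), was a whole N18 domain with 164 genes in the region of the major histocompatibility complex and by 34.9% in LAP2alpha domains. Col11a2, Rps28, Rps18 and Cyp21a1 were its listed genes, and its longest were BC051142 and Tnxb, which encodes a tenascin of the matrix. On chromosome 19 the stretches chr19:55517001-57706000, with Vti1a and Ablim1, and chr19:4026001-5940000, with Kcnk7 and Banf1, held 17 and 91 genes. The fifth, chr17:45936001-47806000, held 52 genes, among them Zfp318 and Rpl7l1. At 30 cycles lamin B1 domains held 14.0% of the second stretch and 0% of the other 4.

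The longest shared stretch was the distal part of chromosome 5, chr5:111551001-143187000, with 438 genes, among them Tmem132d, Tmem132c, Tmem132b and Sun1. It lay wholly in LAP2alpha domains and by 17.5% in lamin B1 domains at 12 cycles. It was followed by chr2:161810001-173459000 (11.6 Mb, 152 genes, with Cdh22, Zfp64 and Zfp217) and chr8:118569001-128986000 (10.4 Mb, 132 genes, with Cdh13, Kcnk1, Cdh15 and Zfp276), by 29.4% and 21.2% in lamin B1 domains. The fourth, chr2:24772001-33990000, with 225 genes including Col5a1, Kcnt1, Grin1 and Rpl12, had 0%, and the fifth, chr13:52723001-60038000, with 90 genes including Zfp346, had 23.2%.

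The 5 longest 3A6-only stretches held between 1 and 29 genes each. The longest, chr9:28930001-30811000, was a whole 3A6 domain with 4 genes, among them Ntm, which encodes the neuronal adhesion protein neurotrimin, and Snx19. It lay by 69.01% in lamin B1 and by 68.4% in LAP2alpha domains at 12 cycles. The second, chr5:146421001-148225000 (1.80 Mb), had 29 genes, among them Cyp3a59, Cyp3a25, Cyp3a44 and Cyp3a11. It had 33.5% of its bp in lamin B1 domains and lay wholly in LAP2alpha domains. At chr8:114543001-116061000 Cntnap4, a neuronal adhesion gene, was the 1 gene, with 96.4% of the stretch in lamin B1 and 2.17% in LAP2alpha domains. The stretches chr14:60236001-61754000, with 10 genes including Atp8a2 and Spata13, and chr5:101717001-102916000, with 3 genes including Wdfy3 and Cds1, had 0% in lamin B1 domains, so lamin B1 did not cover all of the class.

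**Figure D3:**
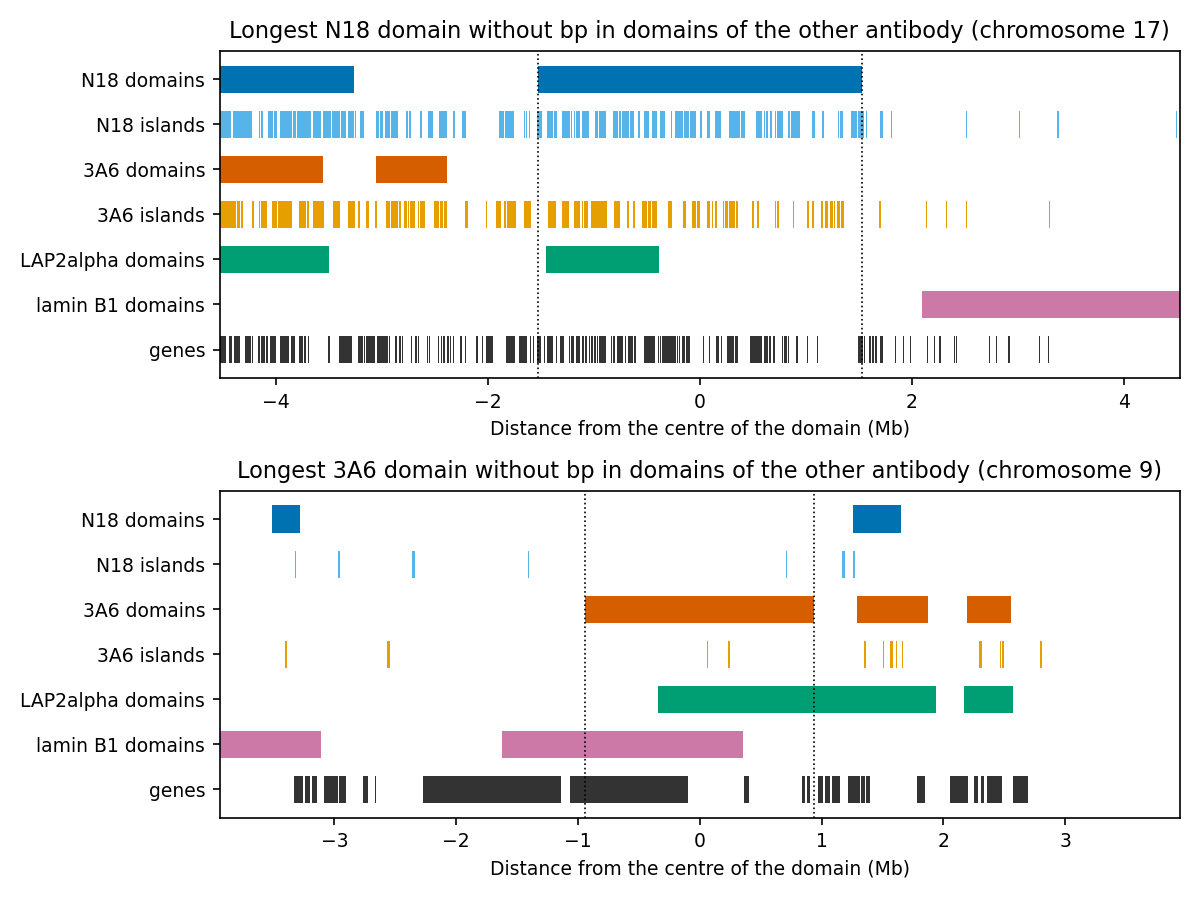
Called regions and genes around the longest N18 domain (top) and the longest 3A6 domain (bottom) without bp in domains of the other antibody, by distance from the centre of the domain (x axis, Mb), with dotted lines at its ends. Each row is 1 kind of region of the 12-cycle WT libraries. The N18 domain holds 164 genes and islands of N18 and 3A6 over 53.1% and 37.0% of its bp, on a chromosome with 27.7% and 25.9%. The 3A6 domain holds 4 genes, a lamin B1 domain over 69.01% of it and islands over 0.638% and 1.49%, on a chromosome with 3.17% and 3.21%.

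The longest genes wholly inside a class differed in their lamin B1 values. Dlgap2, a postsynaptic scaffold gene of 752 kb, was N18-only, with 0% of its length in lamin B1 domains at either sonication and 100% in 12-cycle LAP2alpha domains. Btbd9 (361 kb) and Klhl29 (298 kb), the next N18-only genes, also had 0% in lamin B1 domains. Thsd7b (946 kb), the longest 3A6-only gene, lay wholly in the lamin B1 and LAP2alpha domains of both sonications. Abca13 (492 kb), a lipid transporter gene, was wholly in lamin B1 domains of both sonications and had 0% in 12-cycle LAP2alpha domains. Atp8a2 (550 kb), a lipid flippase gene, had 0% in lamin B1 and 100% in LAP2alpha domains. Of the longest shared genes, Auts2 (1106 kb) and Accn1 (1088 kb), an ion channel gene, had 0% in 12-cycle lamin B1 domains, as had Gm20388, a 4435-kb gene model.

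The other lamin A/C libraries, none of which was used to make the classes, showed which antibody-only bp was called again. N18-only bp was found with N18 rather than with 3A6 in KO cells. N18 domains of KO cells held 29.5% of it at 12 cycles and 49.6% at 30 cycles, against 16.0% and 17.9% of the genome. 3A6 domains of KO cells held 7.63% and 5.27%, against 14.5% and 18.9% of the genome. After 30 cycles in WT cells N18-only bp was nearly lost from both antibodies, with 2.49% in N18 domains (genome 9.04%) and 0.523% in 3A6 domains (genome 22.1%).

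3A6-only bp, in contrast, was called by both antibodies elsewhere. 3A6 domains of KO cells held 48.8% of it at 12 and 45.1% at 30 cycles, and N18 domains of KO cells held 40.5% and 52.9%. In WT cells after 30 cycles N18 domains held 43.4% of it, 4.08 times the 10.6% expected from the mix of chromosomes, and 3A6 domains held 30.3%. The chromatin that N18 missed after 12 cycles was therefore covered with N18 after 30 cycles at a higher share than the shared bp (38.5%). Shared bp was kept best by N18 in KO cells, with 70.8% at 12 and 83.3% at 30 cycles, and by 3A6 in KO cells with 46.3% and 43.0%, but in WT cells after 30 cycles 3A6 domains held 11.5% of it.

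**Figure D4:**
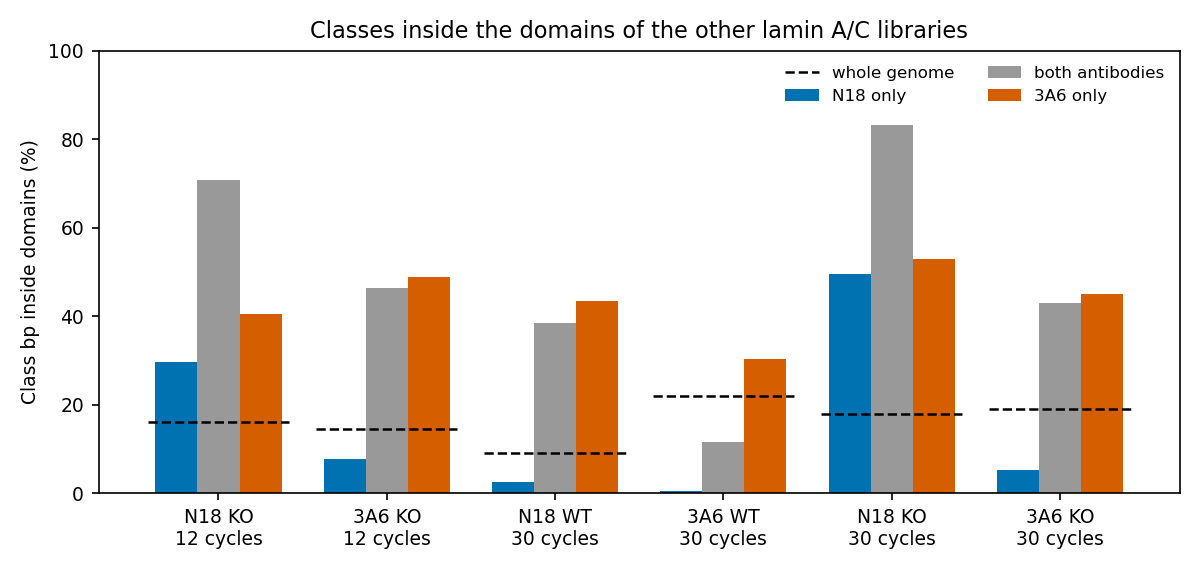
Share of the bp of each class (y axis, %) inside the EDD domains of the 6 lamin A/C libraries that did not define the classes, 1 library per group of bars, with a dashed line at the share of the whole genome. N18-only bars exceed the genome line in the N18 libraries of KO cells alone (29.5% and 49.6%), and 3A6-only bars exceed it in all 6.

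Single regions followed this pattern to different degrees. The longest N18-only stretch, on chromosome 15, lay wholly in N18 domains of KO cells at both sonications and by 1.66% in 3A6 domains of KO cells at 12 cycles. The histocompatibility stretch on chromosome 17 was covered by 16.2% with N18 and by 12.6% with 3A6 in KO cells at 12 cycles. The Cntnap4 stretch lay wholly in N18 domains of KO cells at 12 cycles and by 96.4% in N18 domains of WT cells at 30 cycles. The Wdfy3 stretch on chromosome 5, at 12 cycles a domain with 3A6 in WT cells, had 0% in 3A6 domains of the other 3 libraries of that antibody.

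SICER islands of the antibodies coincided less often than their domains. Islands covered 241 Mb with N18 and 232 Mb with 3A6, of which 118 Mb were shared, so 50.9% of 3A6 island bp lay in N18 islands and 48.996% of N18 island bp in 3A6 islands. No bp was shared by 4060 N18 islands (46.3% [45.3, 47.4]) and by 4455 3A6 islands (48.6% [47.6, 49.7]). Islands without a counterpart were shorter, with a median of 14.0 kb against 23.0 kb with N18 and 14.0 kb against 22.0 kb with 3A6. As with domains, a group defined by no shared bp tends to be short. Reads per kb were 20.1 against 21.6 with N18 and 19.9 against 21.6 with 3A6. Every island had to pass the same calling threshold, and 12-cycle LAP2alpha islands also had 21.1 reads per kb, though 12-cycle lamin B1 islands had 38.4. The near-equal densities of N18 and 3A6 islands are therefore no measure of how strong these islands were.

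Over larger windows the islands lay in the same places. Islands per 1-Mb bin correlated between the antibodies with Pearson's r = 0.89 over 2649 bins, a description across bins that share the input and the lane. Within the 15 chromosomes with at least 100 islands from each antibody r ranged from 0.62 on chromosome 2 to 0.90 on chromosome 17, with a median of 0.83. The share of 3A6 island bp inside N18 islands ranged over the same chromosomes from 9.36% on chromosome 18 to 71.7% on chromosome 8. Chromosomes 1, 7 and 12 together held 10 N18 and 13 3A6 islands, although 89.4 Mb of shared domain bp lay there.

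Islands also showed that antibody-only domain bp was not empty for the other antibody. In N18-only bp N18 islands covered 32.3%, which is 2.47 times the value from the mix of chromosomes, and 3A6 islands 24.4%, which is 1.97 times. In 3A6-only bp 3A6 islands covered 15.8% (2.14 times) and N18 islands 10.1% (1.33 times). Bp outside all domains had 6.39% in N18 and 5.90% in 3A6 islands (0.704 and 0.676 times). The longest N18-only stretch, on chromosome 15, was covered by 69.6% with N18 islands and by 50.7% with 3A6 islands.

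When islands defined the classes, gene density was 12.3 genes per Mb in N18-only, 15.0 in shared and 7.28 in 3A6-only island bp. N18-only island bp kept the higher density over 3A6-only island bp, but no longer over the shared bp. Lamin B1 islands at 12 cycles held 15.6% of N18-only, 28.9% of shared and 26.9% of 3A6-only island bp, against 9.71% of the genome. Each island class thus lay above the genome's share, whereas N18-only domain bp lay below it in lamin B1 domains. The second-longest islands without a counterpart were an N18 island of 272 kb on chromosome 8, at chr8:129120001-129392000, nearest to Irf2bp2, and a 3A6 island of 125 kb at chr8:113587001-113712000 within Pdpr.

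The contrasts recurred chromosome by chromosome. On 16 of the 20 chromosomes at least 1 Mb of both antibody-only classes was present. On these, gene density was higher in N18-only than in 3A6-only bp on 16 of 16, as was G+C. The share in lamin B1 domains was higher in 3A6-only bp on 15 of 16 at 12 cycles and on 16 of 16 at 30 cycles, the remaining chromosome (10) having 0% in both classes at 12 cycles. The share in 12-cycle LAP2alpha domains was higher in N18-only bp on 14 of 16. Chromosomes share the same libraries and are no replicates of the experiment.

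Some chromosomes leaned to 1 antibody. N18-only bp outweighed 3A6-only bp on chromosome 17, with 10.2 against 1.19 Mb, on chromosome 19, with 7.39 against 1.68 Mb, and on chromosome 15, with 6.53 against 2.54 Mb. The reverse held on chromosome 7, with 5.65 against 12.99 Mb, and on chromosome 4, with 1.99 against 5.19 Mb. Chromosome 3 held 0.649 Mb of shared bp and no N18-only bp, and the X chromosome 1.66 Mb of N18-only and 0.011 Mb of 3A6-only bp. Where at least 10 Mb were covered, the share of 3A6 bp inside N18 domains ranged from 59.5% on chromosome 10 to 91.0% on chromosome 17, and the share of N18 bp inside 3A6 domains from 41.7% on chromosome 19 to 89.4% on chromosome 5. On chromosomes 1 and 13, 76.7% and 89.2% of 3A6-only bp lay in 12-cycle lamin B1 domains, against 2.16% and 6.87% of N18-only bp.

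**Figure D5:**
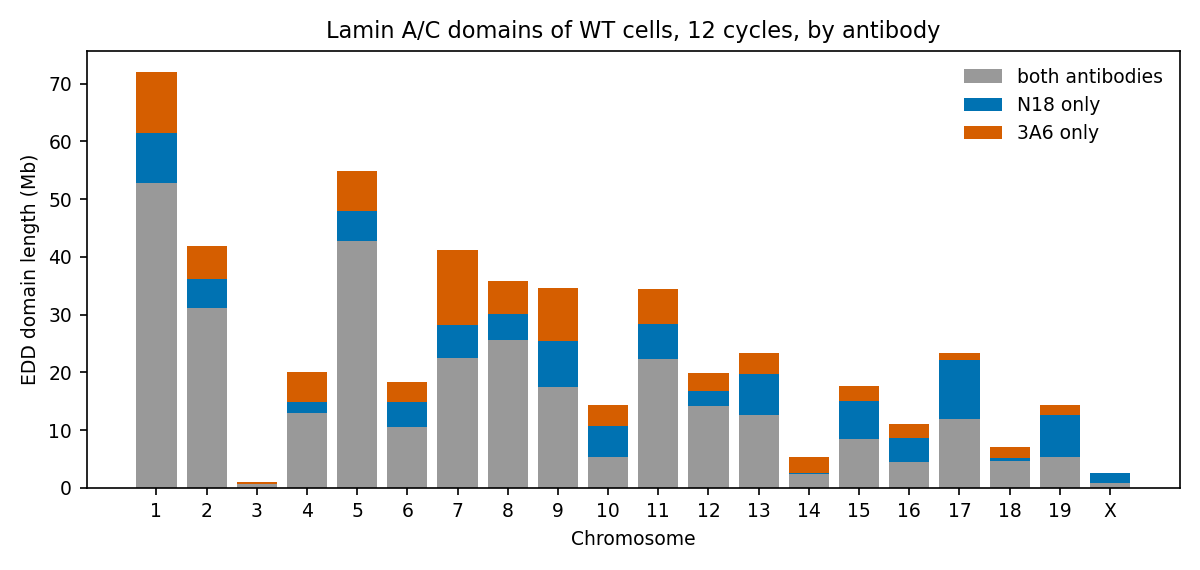
Length of EDD domains (y axis, Mb) by chromosome (x axis), stacked as bp of both antibodies, of N18 only and of 3A6 only. N18-only bp exceeds 3A6-only bp on chromosomes 17 and 19 (10.2 against 1.19 Mb and 7.39 against 1.68 Mb), and 3A6-only bp exceeds N18-only bp on chromosome 7.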

How the data were processed

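Chromatin immunoprecipitation sequencing was analysed from lists of called regions. As the submitters' processing notes and the study's methods state, the authors clipped adapters with cutadapt, mapped reads to mm9 with Bowtie2 2.1.0, discarded reads of mapping quality below 20, removed duplicates and reduced ChIP reads to the number of input reads with Picard, and called regions against input with SICER 1.1 (window 1000 bp, gap 3000 bp, false discovery rate 0.01) and EDD 1.0.2 (bin 11 kb, gap penalty 5, false discovery rate 0.1). For every island the authors deposited counts, the ChIP reads that fell in it, without any scaling. For every domain they deposited a score, given by their caller EDD. Depth decides what can be called at all, an error that the intervals do not cover.

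All region ends fell on multiples of 1000 bp, so overlaps were taken on a 1000-bp grid of the 20 chromosomes (2639 Mb) with Python 3.11.15 and NumPy 2.4.6. The class code was tested on simulated domains and gave the bp of bedtools in every class (difference 0). Positions are 1-based on mm9, whose chromosome lengths the reference matched. Genes are the 22350 protein-coding records of GENCODE vM1, 1 per symbol (22208), counted in a class at 50% of their length. Values expected from the mix of chromosomes apply each chromosome's own coverage to the class bp on it.

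The members, the 24 gene lists and the comparisons were chosen with earlier results of these data known. Genes were named by rule. These were the listed genes, or else the 2 longest genes, of the 5 longest stretches of each class, all genes of the nuclear lamina and LINC lists, up to 3 genes per list and class by length, the 3 longest genes of each class, the 2 longest genes of each antibody's longest domain without a counterpart, and the gene holding or nearest to the 2 longest such islands. Promoters shown are those of the longest gene wholly inside the longest stretch of each class. A gene that the rule names is not reported here. Inputs and histone marks of the series were not analysed here. Alternatives were islands for domains, stricter or longer domains, autosomes, stretches of at least 100 kb, other references and other bins. Island classes for gene density or against EDD domains, and leaving out chromosomes 1, 7 and 12 for the references, were added after the data were seen.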

Additional observations from a re-analysis of the deposited data

How the results depend on the processing

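No paired analysis was possible because each group is 1 library, and no replicate could be left out. Of 98 alternatives 71 left a value within its range (the exact 95% interval with domains or stretches as n for shares and G+C, 1.5 times for gene densities and correlations), and 27 moved it. For G+C this interval is wider than the differences between the classes, and 1.5 times is a wide range for a correlation. Those alternatives could therefore hardly move. Subsets such as autosomes keep most of the same bp, so the count of 71 is no measure of robustness. 3A6-only bp kept the higher share in lamin B1 domains under 8 of 8 alternatives, and N18-only bp the higher gene density under 6 of 6 and the higher G+C under 3 of 3. N18-only bp kept the higher LAP2alpha share under 6 of 8, not with the 30-cycle reference or with island classes against EDD domains. Causes were not tested.

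With SICER islands 50.9% of 3A6 bp lay in N18 and 48.996% of N18 bp in 3A6 islands (53.5% and 50.7% above the median read count). Counted as domains, 68.8% of 3A6 domains had at least 1 bp and 64.6% at least 50% in N18 domains. For island classes against islands, N18-only, shared and 3A6-only shares were 15.6%, 28.9% and 26.9% for lamin B1 and 34.4%, 69.2% and 31.1% for LAP2alpha. The genome had 9.71% in lamin B1 and 9.14% in LAP2alpha islands. Against EDD domains the class shares were 6.43%, 10.2% and 15.0%, and 29.8%, 52.1% and 30.3%, and N18-only gene density was 12.3 per Mb. The 30-cycle references gave 31.7%, 62.3% and 61.6% for LAP2alpha and 47.1% of 3A6-only bp for lamin B1. Domains above the median score gave 81.2%, 97.4% and 69.4% for LAP2alpha. Without chromosomes 1, 7 and 12 it held 42.7% of 3A6-only bp. Correlations per bin ranged from 0.83 (500-kb bins) to 0.97 (5-Mb bins).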
